A study of Homo sapiens with 18 samples.

Results

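The genes described here are 9 TALE homeobox genes, MEIS1, MEIS2, MEIS3, PBX2, PBX3, PBX4, PKNOX1, TGIF1 and TGIF2, out of 20020 protein-coding genes in GENCODE release 44. For each histone mark, every listed interval that overlapped a gene body with 10 kb on either side was taken. An interval within 2 kb of an annotated transcription start site (TSS) of the gene was classed as promoter, any other interval on the gene body as intragenic, and the rest as flanking. This gave 68 of 74559 intervals for H3K27ac, 39 of 33437 for H3K27me3, 140 of 108165 for H3K4me1 and 59 of 59230 for H3K4me3. The listed intervals overlap each other, and the 306 intervals of the family merge into 111 separate loci. Of the 9 genes, 8 had an interval in at least 1 mark, and PBX2 had none. Of the 306 intervals, 305 passed the filter on low counts, the exception being an H3K27me3 interval of MEIS2.

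The intervals come from Cut&Tag, in which an antibody guides Tn5 transposase to tag DNA around a histone modification, in MOLM-13, an established line of human acute myeloid leukemia cells in which KMT2A is rearranged. All cells carried that rearrangement and were exposed for 72 h to 100 nM PR-957 (ONX-0914), an inhibitor of the immunoproteasome subunit PSMB8, or to DMSO as the diluent; a legend of the study gives a shorter time. Each mark has 2 libraries per treatment, 16 in all, from 1 cell line. The labels do not say whether the libraries come from separate cultures, so that p-values measure only the spread between these libraries, which may be technical. Total counts per library were 9885836 to 14165777 for H3K27ac, 10032503 to 12047958 for H3K27me3, 15204186 to 30584219 for H3K4me1 and 30070119 to 44591150 for H3K4me3. Of 6 myeloid genes (SPI1, CEBPA, CD33, MPO, LYZ, CSF1R), 6 had an H3K27ac promoter interval and 0 an H3K27me3 interval, while the erythroid genes GATA1 and HBB had none in any mark. Because the libraries are made from bulk cells, a change in the amount of a mark per cell and a change in the share of cells that carry it cannot be told apart.

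TALE proteins are homeodomain transcription factors with a short insertion in the DNA-binding domain. MEIS and PBX proteins bind DNA together with HOX proteins, and MEIS1 with PBX3 is known as a partner of HOXA9 in acute leukemias with KMT2A rearrangements. PKNOX1 is a further PBX partner of the MEIS type, whereas TGIF1 and TGIF2 act mainly as repressors that recruit corepressors. H3K4me3 and H3K27ac mark active promoters, H3K27ac and H3K4me1 mark enhancers, and H3K27me3 is laid down by Polycomb complexes at silenced genes.

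The sequences of 4 promoters are shown because the results turn on them: MEIS1, the most acetylated promoter of the family, PBX3, its partner, and MEIS2 and MEIS3, which lay in H3K27me3 domains. Each is 200 bases of the hg38 reference, shortly upstream of the canonical TSS, 5′ to 3′ on the strand of the gene, with CpG dinucleotides in capitals.

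MEIS1, chr2:66434875-66435074, plus strand: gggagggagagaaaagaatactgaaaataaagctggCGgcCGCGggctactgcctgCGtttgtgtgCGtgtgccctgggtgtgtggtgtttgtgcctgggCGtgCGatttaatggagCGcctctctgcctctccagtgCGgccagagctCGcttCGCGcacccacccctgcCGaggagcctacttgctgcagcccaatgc

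PBX3, chr9:125747123-125747322, plus strand: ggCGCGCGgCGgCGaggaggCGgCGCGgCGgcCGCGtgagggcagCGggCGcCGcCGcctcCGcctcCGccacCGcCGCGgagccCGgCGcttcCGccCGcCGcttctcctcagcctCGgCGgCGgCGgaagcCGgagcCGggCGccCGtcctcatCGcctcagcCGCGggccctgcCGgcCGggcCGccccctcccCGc

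MEIS2, chr15:37100600-37100799, minus strand: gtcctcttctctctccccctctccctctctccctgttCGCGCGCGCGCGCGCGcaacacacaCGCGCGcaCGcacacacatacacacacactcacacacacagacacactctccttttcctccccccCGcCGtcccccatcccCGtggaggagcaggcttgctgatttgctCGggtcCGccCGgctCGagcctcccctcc

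MEIS3, chr19:47419578-47419777, minus strand: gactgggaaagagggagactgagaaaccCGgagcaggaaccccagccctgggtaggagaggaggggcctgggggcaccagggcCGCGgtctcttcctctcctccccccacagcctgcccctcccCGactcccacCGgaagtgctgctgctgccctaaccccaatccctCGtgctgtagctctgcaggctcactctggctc

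The PBX3 window held 40 CpG, more than 99.7% of the 20020 protein-coding promoters in windows of the same position and length. The MEIS2 window held 19 and the MEIS1 window 13, the median over all promoters. The MEIS3 window held 6, with an observed over expected ratio of 0.271 against a median of 0.715 over all promoters. The MEIS half-site TGACAG was searched on both strands in the windows of all 9 genes and was found in TGIF1 alone, and it occurs in 9.69% of all promoter windows. The composite TGATTNAT was found in 0 of the 9 windows and in 1.5% of all promoter windows.

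In DMSO the marks were spread unevenly over the family, and the promoters of MEIS1 and MEIS2 were listed both for the active marks and for H3K27me3. The H3K27me3 interval of MEIS1 was weak and ended upstream of the canonical TSS. The 200 bases shown above lay under 0 H3K27me3 intervals at MEIS1 and under 4 at MEIS2. Levels between genes were compared as CPM per kb, that is each library's normalised count (CPM after TMM scaling) divided by the length in kb of the promoter interval with the highest mean count. MEIS1 and PBX3 had the highest H3K27ac levels of the family, 16.8 and 14.0 CPM per kb, at ranks 199 and 364 among the 12085 protein-coding genes with an H3K27ac promoter interval, whose median level was 4.00. The 2 DMSO libraries gave 16.7 and 16.8 CPM per kb for MEIS1 and 14.1 and 13.9 for PBX3, so that these neighbours in the order did not overlap. TGIF2 followed at 10.8 CPM per kb, PKNOX1 at 9.64 and TGIF1 at 7.78. The DMSO libraries of PKNOX1, at 8.65 and 10.6 CPM per kb, overlapped those of TGIF2, at 10.2 and 11.3, so that the order of this pair is within their spread. PBX4 at 1.84 CPM per kb, measured at an alternative promoter, and MEIS2 at 1.49 lay below the median.

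For H3K4me3 the order was flatter. MEIS1 had 6.47 CPM per kb, PBX3 5.76, TGIF1 5.44, TGIF2 5.44 and PKNOX1 4.79. These levels lay above the median of 4.59 over 12790 genes, from rank 2962 for MEIS1 to rank 5976 for PKNOX1. MEIS2 at 2.86 and PBX4 at 0.893 lay below the median. MEIS3 had neither an H3K4me3 nor an H3K27ac interval. For H3K27me3 the order was turned. MEIS3 had 12.5 CPM per kb, at rank 246 of 3874 genes with such an interval, MEIS2 had 7.7, at rank 454, and the promoter interval of MEIS1 had 1.88 against a median level of 2.03. No H3K27me3 interval was listed for PBX3, PBX4, PKNOX1, TGIF1 or TGIF2.

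**Figure D1:**
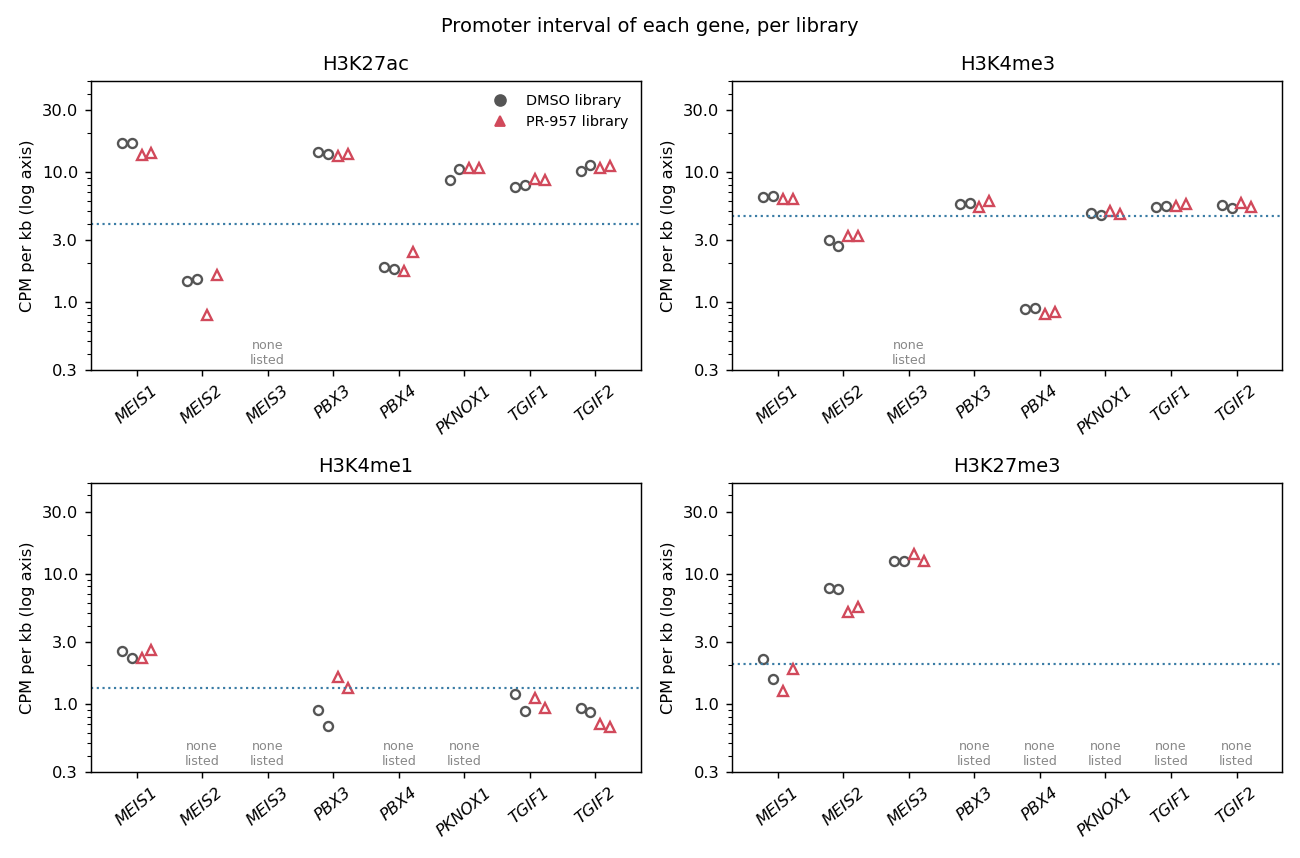
Level of the promoter interval with the highest mean count for 8 TALE genes in each library, in CPM per kb on a log axis, with DMSO libraries as circles, PR-957 libraries as triangles and the median over protein-coding genes with a promoter interval in DMSO as a dotted line. MEIS1 and PBX3 lie highest for H3K27ac, MEIS3 and MEIS2 highest for H3K27me3, and "none listed" marks a gene with no promoter interval of that mark.

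The marks also differed in width. The merged H3K4me3 locus at the MEIS1 start was 16.3 kb wide, at rank 46 of 16122 H3K4me3 loci, so that 0.285% of all loci were as wide. The H3K27ac locus there was 14.8 kb wide, at rank 227 of 30670, or 0.740% of loci. Both ran from the start to the region of exon 6 of the canonical transcript. At PBX3 the H3K4me3 locus was 8.34 kb wide (3.84% of loci as wide) and the H3K27ac locus 6.40 kb (7.24%). TGIF1 had an H3K4me3 locus of 9.71 kb (2.26%) and an H3K27ac locus of 10.2 kb (2.22%). The H3K27me3 locus over MEIS3 was 34.3 kb wide, at rank 144 of 13897, and covered all 13 exons of the gene. It also came within 2 kb of an annotated start of the neighbouring gene SLC8A2, which need not be the main start of that gene. Of the 28 H3K27ac loci of the family, 18 overlapped an H3K4me3 interval, 19 an H3K4me1 interval and 4 an H3K27me3 interval.

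PR-957 was then compared with DMSO within each mark by edgeR's quasi-likelihood test, with Benjamini-Hochberg adjustment over all tested intervals of the mark. An interval with an adjusted p below 0.05 is called higher or lower. Over the 4 marks, 27 of the 305 tested intervals of the family were called, 26 lower and 1 higher in PR-957, in 8 of the 111 loci. They lie at MEIS1, MEIS2 and PBX3. Over all tested intervals, 0.173% were called lower for H3K27ac, 5.09% lower for H3K27me3 and 1.24% higher for H3K4me1. At MEIS3, PBX4, PKNOX1, TGIF1 and TGIF2, edgeR called 0 intervals and DESeq2 also 0. In edgeR the unadjusted p lay under 0.05 for 7 of their 89 intervals, which merge into 31 loci. For this and the later counts of unadjusted p, the share over all tested intervals is not given here. Such counts are therefore not read as changes.

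**Figure D2:**
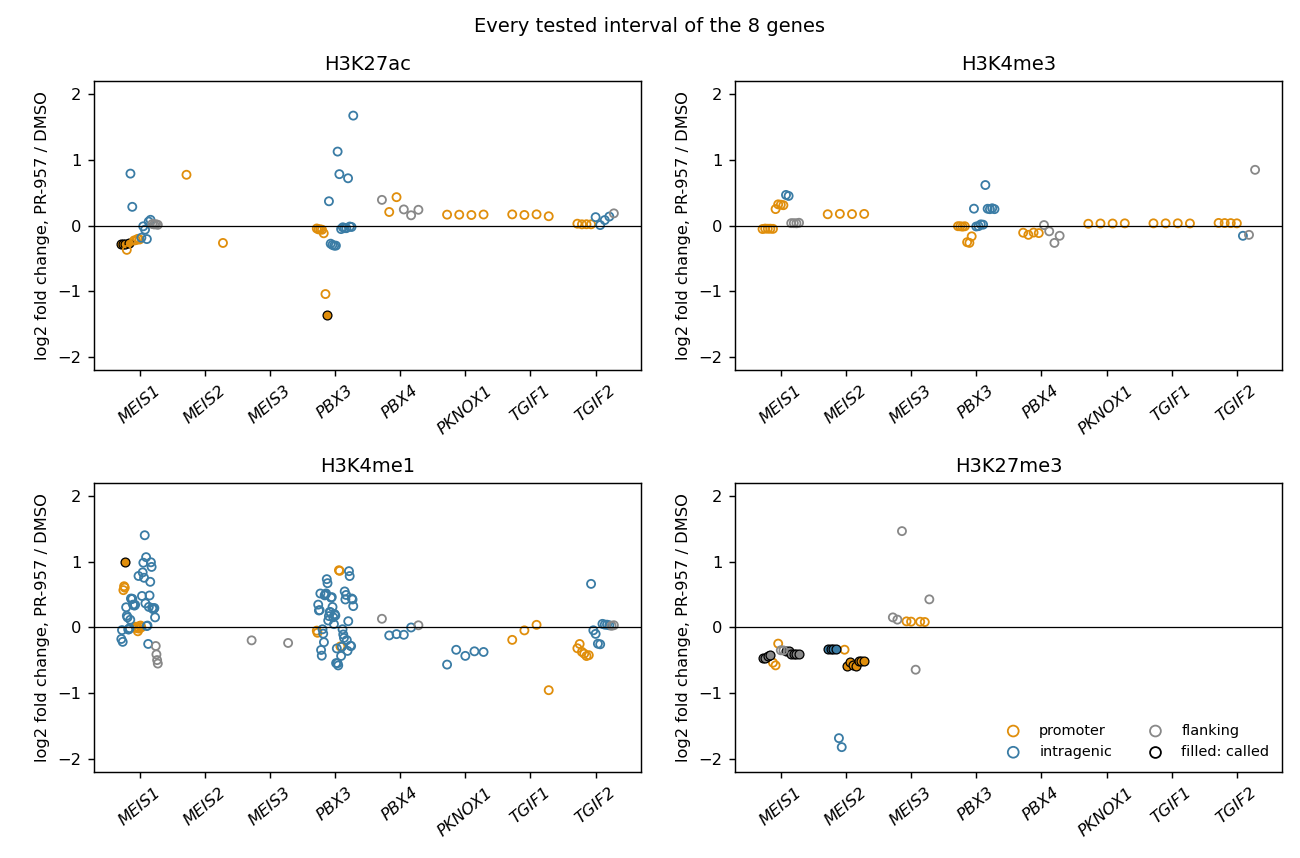
Log2 fold change, PR-957 over DMSO, of each of the 305 tested intervals, by gene and mark, coloured by class (promoter, intragenic, flanking), with called intervals filled. The H3K27me3 intervals of MEIS1 and MEIS2 all lie below 0, and the 26 intervals called lower are 4 of MEIS1 and 1 of PBX3 for H3K27ac and 10 of MEIS1 and 11 of MEIS2 for H3K27me3.

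For H3K27ac, 5 of 68 intervals of the family were called lower, where 0.173% of all 74510 tested intervals were called lower, and 0 were called higher, where 0.0644% of all were. DESeq2 called 4 of the 68 lower, and over all 74510 intervals it called 71 lower and 14 higher. In edgeR 14 of the 68 had an unadjusted p under 0.05, and the median log2 fold change over the 68 was 0.020. The calls were 4 overlapping intervals at the MEIS1 start and 1 interval at PBX3.

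MEIS1 encodes a HOX cofactor that KMT2A-rearranged leukemias are known to express highly and to need for growth. Its H3K27ac interval chr2:66432810-66447645, spanning exons 1 to 6 and 14.8 kb, had 248 and 249 CPM under DMSO and 201 and 209 CPM under PR-957. Both PR-957 libraries lay below both DMSO libraries, and the gap exceeded the spread within either treatment. The log2 fold change was -0.28 (standard error 0.043, edgeR adjusted p = 4.08e-07), and it ranged from -0.30 to -0.24 over the alternatives, with adjusted p-values of at most 0.0160. The part of this domain downstream of the start, chr2:66436374-66447419, had 205 and 209 CPM in DMSO and 172 and 174 CPM in PR-957 (log2 fold change -0.26, edgeR adjusted p = 4.16e-05). Without PR-957 replicate 2 this part alone did not pass in edgeR (adjusted p = 0.103, and 8.12e-06 to 0.103 over the alternatives). The part over the start itself, chr2:66432886-66436037, had 42.2 and 39.9 CPM in DMSO and 29.5 and 33.9 CPM in PR-957. The fitted log2 fold change was -0.37, larger in size than that of the downstream part, but it did not pass in edgeR (adjusted p = 0.0903). The difference between these parts was not tested.

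MEIS1 was also set against the promoters of other TALE genes in the same library, which needs no scaling between libraries but moves with either gene. The 4 ratios share the MEIS1 counts, and TGIF1 and PKNOX1 themselves had log2 fold changes of 0.17 that did not pass. The ratio of MEIS1 to PBX3 counts was 2.74 and 2.81 under DMSO and 2.39 and 2.38 under PR-957. The ratio of MEIS1 to TGIF1 was 3.18 and 3.10 in DMSO and 2.25 and 2.36 in PR-957, and that to TGIF2 was 5.33 and 4.85 against 4.12 and 4.16. For PKNOX1 it was 7.54 and 6.16 against 4.91 and 5.12. In each of these 4 ratios both PR-957 libraries lay below both DMSO libraries. Such an order fixes the exact permutation p at 0.333, the smallest that 2 against 2 libraries allow. The MEIS1 interval had already been called lower in these same libraries, so that the ratios are no separate support for its decrease.

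The other H3K27ac elements of MEIS1 did not pass. The alternative promoter 73 kb downstream of the canonical start, chr2:66506071-66510070, had 18.8 and 19.6 CPM in DMSO and 14.1 and 18.3 CPM in PR-957 (log2 fold change -0.22, edgeR adjusted p = 0.766). An element in intron 9, chr2:66555169-66556878, had 5.45 and 5.24 CPM against 4.63 and 4.79 CPM, a log2 fold change of -0.18 (edgeR adjusted p = 0.934). In both, the PR-957 libraries lay below the DMSO libraries without passing the threshold. H3K4me3 in intron 9, chr2:66555203-66556393, was 0.895 and 1.25 CPM in DMSO and 1.51 and 1.42 CPM in PR-957 (log2 fold change 0.45, edgeR adjusted p = 0.873). Just past the 3′ end of the gene, at the start of the noncoding gene LINC01798, H3K27ac was 19.8 and 21.8 CPM in DMSO and 20.3 and 21.7 CPM in PR-957, so that the groups overlapped.

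H3K4me3 at the MEIS1 start, chr2:66432001-66447558, was 99.6 and 102 CPM in DMSO and 96.9 and 97.3 CPM in PR-957. The libraries of the 2 treatments did not overlap, yet the log2 fold change of -0.05 (standard error 0.067) did not pass in edgeR (adjusted p = 0.927). H3K27ac over the same span had fallen by 0.28 on the log2 scale, and whether the marks differed in their change was not tested, since they were fitted apart.

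**Figure D3:**
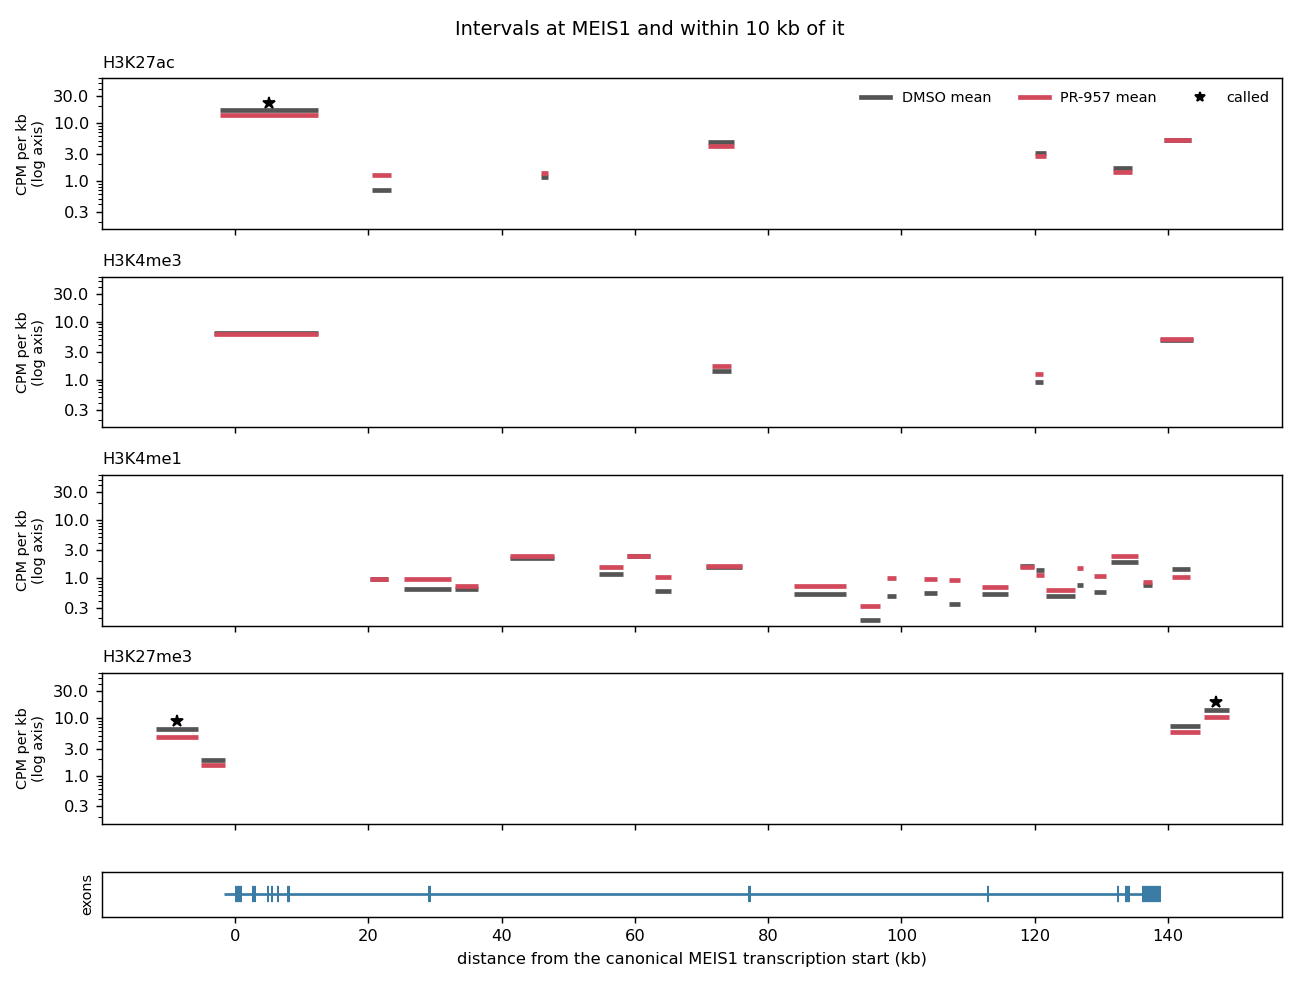
Mean level in DMSO (grey) and PR-957 (red) of the intervals at MEIS1 and within 10 kb of it, in CPM per kb on a log axis, against the distance from the canonical TSS in kb, with the exons of the canonical transcript below. Of overlapping intervals only those with the highest counts are drawn and a star marks a drawn interval that was called, so that the locus 143 kb downstream, where 2 of 4 nested intervals were called, carries none. H3K27ac and H3K4me3 share the domain at the start, and H3K4me1 fills the introns. H3K27me3 lies mainly on both flanks of the gene, and a weak upstream locus reaches its first bases.

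PBX3 encodes the PBX protein most often found with MEIS1 in leukemia. Its main H3K27ac promoter interval, chr9:125745077-125751479, had 90.5 and 88.7 CPM in DMSO and 84.3 and 88.0 CPM in PR-957 (log2 fold change -0.06, standard error 0.065) and did not pass in edgeR (adjusted p = 0.911). The 2 groups did not overlap, but the gap between them was smaller than the spread within PR-957. A smaller interval next to it in intron 2, chr9:125751935-125754520, was called lower. It had 5.60 and 5.24 CPM in DMSO, from 74 and 52 counts, and 2.82 and 1.55 CPM in PR-957, from 28 and 22 counts, a log2 fold change of -1.36 (standard error 0.34, edgeR adjusted p = 0.0282). DESeq2 gave it no adjusted p, and in edgeR the call was lost with adjusted p-values of 0.379, 0.229 and 0.593 when DMSO replicate 1, DMSO replicate 2 or PR-957 replicate 2 was left out, and of 0.102 after removal of the GC trend. Over those and all other alternatives its adjusted p ranged from 0.0221 to 0.593.

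The strongest distal H3K27ac element of PBX3 lay 142 kb downstream of the start, also in intron 2, at chr9:125888186-125891439. It had 38.4 and 38.3 CPM in DMSO and 35.7 and 38.1 CPM in PR-957 (log2 fold change -0.05, edgeR adjusted p = 0.957). An element 12 kb from the start, chr9:125758716-125760448, had 13.2 and 13.7 CPM in DMSO and 11.3 and 10.7 CPM in PR-957, and the log2 fold change was -0.29, which did not pass in edgeR (adjusted p = 0.730). H3K4me3 at the PBX3 start was 45.7 and 46.5 CPM in DMSO and 43.3 and 47.9 CPM in PR-957, with overlapping groups. At the element 142 kb downstream H3K4me3 was 5.10 and 5.53 CPM against 6.27 and 6.37 CPM, a log2 fold change of 0.25 (edgeR adjusted p = 0.789), with both PR-957 libraries above both DMSO libraries.

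**Figure D4:**
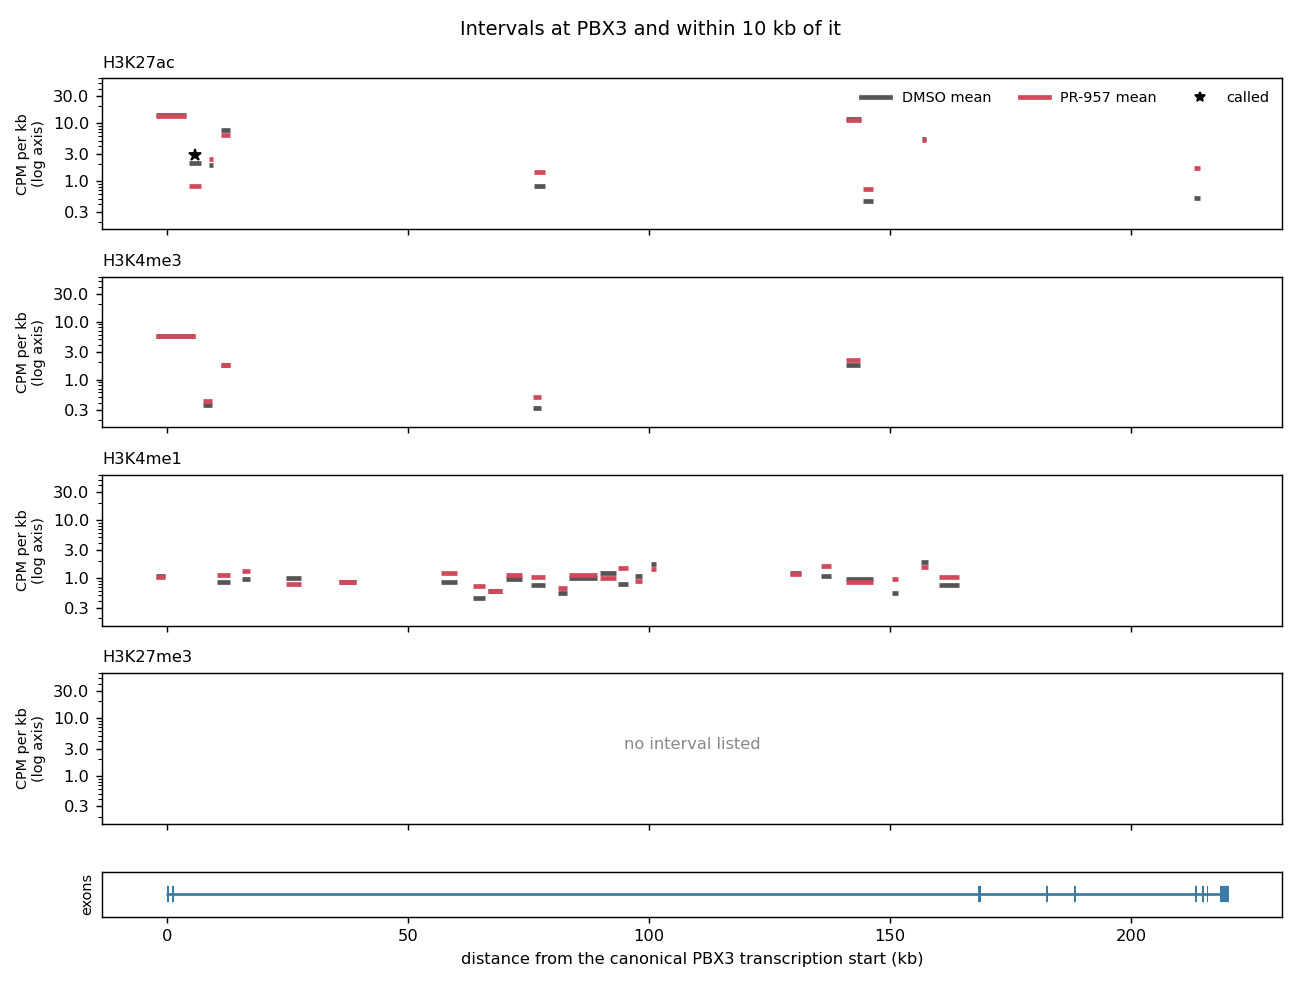
Mean level in DMSO (grey) and PR-957 (red) of the intervals at PBX3 and within 10 kb of it, in CPM per kb on a log axis, against the distance from the canonical TSS in kb, with the exons below. Of overlapping intervals only those with the highest counts are drawn; the star marks the called H3K27ac interval 5.85 kb from the start, and no H3K27me3 interval was listed.

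The remaining acetylated promoters did not pass in edgeR. TGIF1, a repressor of TGF-beta and retinoid signalling, had 78.0 and 80.3 CPM of H3K27ac in DMSO and 89.6 and 88.7 CPM in PR-957 over chr18:3444675-3454847. Both PR-957 libraries were higher, and the log2 fold change of 0.17 (standard error 0.067) had an unadjusted p of 0.0100 and an edgeR adjusted p of 0.411. PKNOX1 had 32.9 and 40.4 CPM in DMSO and 41.1 and 40.8 CPM in PR-957 over chr21:42972508-42976314, a log2 fold change of 0.17 (edgeR adjusted p = 0.711). Here DMSO replicate 1 alone lay apart from the other libraries. TGIF2, a close relative of TGIF1, had 46.6 and 51.4 CPM in DMSO and 48.9 and 50.2 CPM in PR-957 over chr20:36572564-36577116, with overlapping groups. A further TGIF2 interval, chr20:36593284-36597861, touched the last exon, which ends at 36593950, and lay mostly past the gene. H3K27ac there was 10.6 and 8.77 CPM in DMSO and 9.26 and 11.3 CPM in PR-957, again with overlapping groups.

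The weakly acetylated members had few counts. MEIS2 had 3.33 and 3.43 CPM of H3K27ac in DMSO and 1.81 and 3.66 CPM in PR-957 at chr15:37099858-37102131, and PBX4 had 3.10 and 3.02 CPM against 2.92 and 4.08 CPM at chr19:19562250-19563918. In both the spread within PR-957 exceeded the difference between treatments.

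For H3K27me3, 21 of 38 tested intervals, or 55.3%, were called lower, where 5.09% of all 31806 tested intervals were called lower, and 0 were called higher, where 0.824% of all were. They lie in 5 of the 11 loci, 3 at MEIS1 and 2 at MEIS2. In a fit of 1 interval per locus, 468 of all 12356 tested loci were called lower. DESeq2 called 19 of the 38 lower, and over all 31806 intervals it called 1159 lower and 119 higher. In edgeR 26 of the 38 had an unadjusted p under 0.05. The median log2 fold change of the 38 was -0.40, beside 0.02 over all intervals. The nested intervals of a locus share their counts and are not independent.

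MEIS2 encodes a MEIS protein used mainly in neural, limb and heart development. Its promoter domain, chr15:37093258-37114236, covered exons 1 to 6 over 21.0 kb. It had 161.7 and 161.2 CPM in DMSO and 107.5 and 115.7 CPM in PR-957. The gap between treatments was several times the spread within either. The log2 fold change was -0.53 (standard error 0.063, edgeR adjusted p = 4.35e-12), and it was called in each alternative, with log2 fold changes from -0.60 to -0.37. The decrease was present on both sides of the start. The part inside the gene, chr15:37093949-37099776, had 39.6 and 48.8 CPM in DMSO and 29.0 and 29.9 CPM in PR-957, and the log2 fold change was -0.59. Without DMSO replicate 2 this part did not pass in edgeR (adjusted p = 0.0543, and 1.19e-06 to 0.0543 over the alternatives). The part that reaches upstream, chr15:37100602-37114601, had 121.0 and 112 CPM in DMSO and 77.7 and 84.9 CPM in PR-957, and the log2 fold change was -0.51.

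A second MEIS2 domain, chr15:36874367-36889862, lay mostly downstream of the gene. It reached only the last part of exon 12, since the 3′ end of the gene is at position 36889204. It had 145 and 139 CPM in DMSO and 111 and 115 CPM in PR-957 (log2 fold change -0.33, standard error 0.064, edgeR adjusted p = 4.13e-05). With library size as the only scaling it did not pass in edgeR (adjusted p = 0.0780, and 1.06e-05 to 0.0780 over the alternatives). The interval of this locus with the smallest p-value, chr15:36877140-36889616, had 142 and 137 CPM in DMSO and 109 and 112 CPM in PR-957 (log2 fold change -0.33, edgeR adjusted p = 2.83e-05).

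MEIS1 carried H3K27me3 mainly on both flanks of the gene, and a weak locus reached its first bases. Upstream, chr2:66423429-66429376, about 9 kb before the start, had 43.4 and 41.7 CPM in DMSO and 28.9 and 32.3 CPM in PR-957 (log2 fold change -0.47, standard error 0.11, edgeR adjusted p = 0.000536). Downstream, chr2:66580954-66584311, 148 kb after the start, had 50.8 and 53.4 CPM in DMSO and 40.4 and 38.3 CPM in PR-957 (log2 fold change -0.41, standard error 0.095, edgeR adjusted p = 0.001). Between this locus and the gene, chr2:66575822-66579954 had 31.9 and 33.6 CPM in DMSO and 26.3 and 24.8 CPM in PR-957 (log2 fold change -0.36, edgeR adjusted p = 0.0406). At all 3 loci both PR-957 libraries lay below both DMSO libraries. The call at chr2:66575822-66579954 was not made in edgeR when any 1 of the 4 libraries was left out (adjusted p-values of 0.0846 to 0.291) and with the replicate number as a block (adjusted p = 0.116), and DESeq2 did not call it (adjusted p = 0.110). Without DMSO replicate 2 the locus 148 kb downstream did not pass in edgeR (adjusted p = 0.0647, the range over all alternatives being 0.000561 to 0.109). The weak interval that reaches the promoter window, chr2:66430063-66433544, had 7.72 and 5.38 CPM in DMSO and 4.36 and 6.50 CPM in PR-957, with overlapping groups.

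MEIS3, the remaining MEIS paralog, had the highest H3K27me3 level of the family, and its domain did not follow the other MEIS genes. The interval chr19:47397972-47432054 had 430.4 and 424 CPM in DMSO and 482 and 428 CPM in PR-957 (log2 fold change 0.09, standard error 0.049) and did not pass in edgeR (adjusted p = 0.368). PR-957 replicate 1 lay above the other libraries, while PR-957 replicate 2 lay between the DMSO libraries. Its 4 promoter intervals were called higher with library size only (log2 fold change 0.25, edgeR adjusted p = 1.08e-07), under cyclic loess (0.28, adjusted p = 3.15e-10), with a mean count of at least 50 (0.15, adjusted p = 0.00928) and without PR-957 replicate 2 (0.17, adjusted p = 0.00488), whereas without PR-957 replicate 1 the log2 fold change was -0.01.

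These H3K27me3 values depend on how the libraries are scaled. With library size only, the median over all intervals was 0.18 rather than 0.02 on the log2 scale, a shift of 0.16, and the calls over all intervals were 1521 higher and 698 lower rather than 262 higher and 1620 lower. Under cyclic loess they were 797 higher and 965 lower. The 15 intervals of MEIS1 and the 14 of MEIS2 all had a log2 fold change below 0 under each of these scalings. Relative to the median of all intervals, the median of MEIS1 was -0.42 with TMM and -0.34 under cyclic loess, and that of MEIS2 was -0.53 and -0.40. Library size only moves all intervals alike, so that it leaves these relative values as they are by construction. With library size only, 0 intervals of MEIS1 and 7 of MEIS2 were called lower in edgeR.

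The ratio of 2 loci in the same library needs no scaling. The MEIS2 promoter domain had 0.376 and 0.381 times the counts of the MEIS3 domain under DMSO and 0.223 and 0.270 times under PR-957. The MEIS2 3′ domain had 0.337 and 0.329 times in DMSO and 0.231 and 0.269 times in PR-957. The MEIS1 locus 148 kb downstream had 0.119 and 0.126 times in DMSO and 0.0842 and 0.0899 times in PR-957. In each of these 3 ratios the groups did not overlap, which fixes the exact permutation p at 0.333, the smallest that 2 against 2 libraries allow. The MEIS1 and MEIS2 loci had already been called lower in these same libraries, so that the ratios are no separate support for their decrease. The ratio of that MEIS1 locus to the MEIS2 promoter domain was 0.317 and 0.331 in DMSO and 0.378 and 0.333 in PR-957. These groups did not overlap either, with the same exact permutation p of 0.333, although both loci had been called lower.

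**Figure D5:**
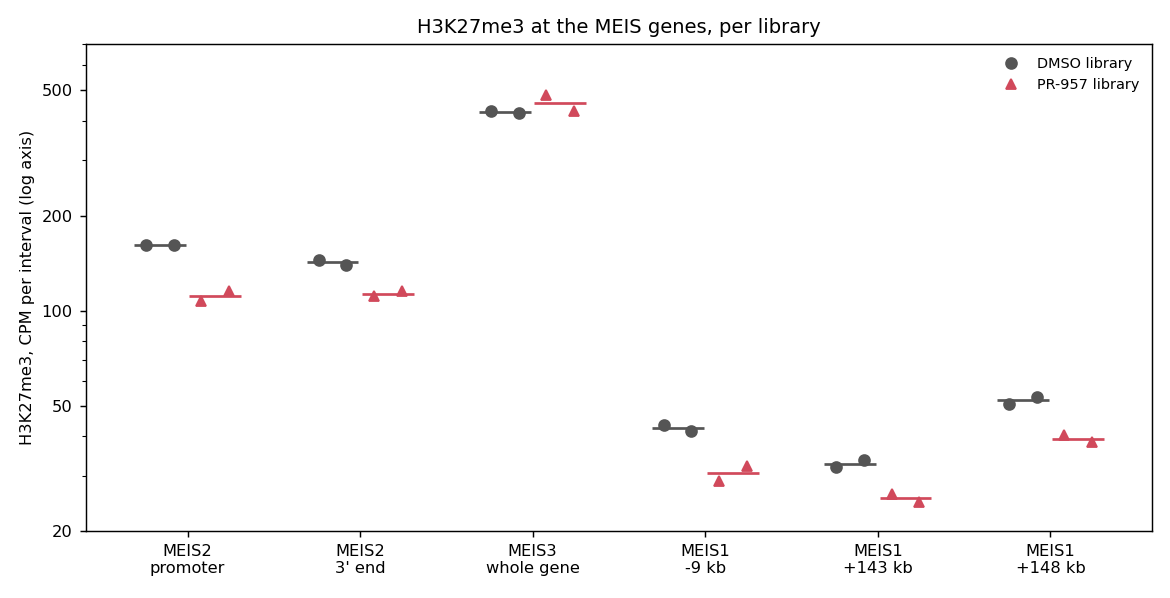
H3K27me3 per library at 6 loci of MEIS1, MEIS2 and MEIS3, in CPM per interval on a log axis, with lines at the mean of each treatment. At the MEIS2 and MEIS1 loci both PR-957 libraries lie below both DMSO libraries, whereas at MEIS3 they lie at 482 and 428 CPM against 430.4 and 424 CPM in DMSO.

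The MEIS2 promoter carried H3K4me3 within its H3K27me3 domain, at chr15:37096353-37102880. H3K4me3 there was 19.6 and 17.8 CPM in DMSO and 21.2 and 21.0 CPM in PR-957. Both PR-957 libraries were higher, and the log2 fold change was 0.17 (standard error 0.086), with an unadjusted p of 0.0429 and an edgeR adjusted p of 0.643. The promoter was thus listed for H3K4me3, H3K27me3 and weakly for H3K27ac, and it had no H3K4me1 interval.

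For H3K4me3, 0 of 59 intervals of the family were called in edgeR and 0 in DESeq2, where 0.181% of all 59229 tested intervals were called higher and 0.0456% lower in edgeR. An unadjusted p under 0.05 was found for 4, all of them overlapping intervals of the MEIS2 promoter. The median log2 fold change was 0.03. PKNOX1 had 22.2 and 21.3 CPM in DMSO and 22.7 and 21.7 CPM in PR-957, TGIF1 had 51.9 and 53.7 CPM against 53.6 and 54.7 CPM, and TGIF2 had 29.3 and 28.1 CPM against 30.4 and 28.7 CPM, each with overlapping groups. The TGIF2 interval chr20:36593413-36596391, which touched the last exon but lay mostly past the gene, had 1.97 and 1.39 CPM against 1.90 and 1.12 CPM, also overlapping. PBX4, a PBX gene known mainly from testis, had 2.06 and 2.09 CPM in DMSO and 1.90 and 1.95 CPM in PR-957 (log2 fold change -0.11, standard error 0.31) and did not pass in edgeR (adjusted p = 0.969).

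For H3K4me1, 1 of 140 intervals was called higher, where 1.24% of all 108158 tested intervals were called higher, and 0 were called lower, where 0.701% of all were. The share of the family lay at or below the background in both directions. DESeq2 called 0, 24 had an unadjusted p under 0.05 in edgeR, and the median log2 fold change was 0.04. Over all intervals the calls were 1341 higher and 758 lower, and with library size only they were 1902 higher and 465 lower.

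Most H3K4me1 loci lay at MEIS1, with 54 intervals in 21 loci, 18 of them intragenic, and at PBX3, with 52 intervals in 22 loci, 19 of them intragenic. Of all these loci, 6 at MEIS1 and 5 at PBX3 overlapped an H3K27ac interval. No H3K4me1 interval was listed over the MEIS1 promoter domain. The called interval, chr2:66463136-66465500, lay over exon 7 of MEIS1, 29 kb from the canonical start and within 2 kb of an alternative start. It had 1.66 and 2.47 CPM in DMSO, from 49 and 59 counts, and 5.20 and 3.13 CPM in PR-957, from 81 and 72 counts. Both PR-957 libraries were higher, and the gap between the treatments was smaller than the spread within PR-957. The log2 fold change was 1.00 (standard error 0.27, edgeR adjusted p = 0.0224), and the call was lost in DESeq2 (adjusted p = 0.504), with the GC trend removed (edgeR adjusted p = 0.162), and, with adjusted p-values of 0.342 and 0.494, when the first library of DMSO or of PR-957 was left out, a range of 0.00585 to 0.504 over all alternatives.

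Of the 54 MEIS1 intervals, 39 had an H3K4me1 log2 fold change above 0, with a median of 0.29, and with the GC trend removed 28 did, with a median of 0.03. Of the 52 PBX3 intervals, 31 were above 0, with a median of 0.18, and with the GC trend removed 26 were, with a median of 0.00068. The strongest intronic interval of MEIS1, chr2:66476454-66483040, had 14.8 and 14.0 CPM in DMSO and 16.7 and 14.7 CPM in PR-957, with overlapping groups, and its log2 fold change of 0.12 became -0.03 with the GC trend removed. The strongest of PBX3, chr9:125830756-125836595, had 6.0 and 5.64 CPM against 6.23 and 6.70 CPM, and its log2 fold change of 0.15 became -0.04.

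The H3K4me1 intervals with the highest counts near a TSS of these genes lay at alternative starts. That of MEIS1, chr2:66493902-66497450, had 9.01 and 8.03 CPM in DMSO and 7.96 and 9.13 CPM in PR-957, with overlapping groups. That of PBX3, chr9:125841035-125842998, had 1.76 and 1.34 CPM in DMSO and 3.14 and 2.61 CPM in PR-957, both PR-957 libraries being higher. Its log2 fold change of 0.87 (standard error 0.33) had an unadjusted p of 0.00772 and did not pass in edgeR (adjusted p = 0.134).

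Elsewhere in the family, H3K4me1 was strongest at chr20:36592495-36604365, which overlapped the last exon of TGIF2 but lay mostly past the gene. It had 34.3 and 30.7 CPM in DMSO and 31.2 and 35.1 CPM in PR-957. The TGIF2 promoter interval chr20:36574576-36578119 had 3.32 and 3.05 CPM in DMSO and 2.50 and 2.35 CPM in PR-957, lower in both PR-957 libraries but not past the threshold in edgeR (log2 fold change -0.40, adjusted p = 0.481). An intron 1 element of PKNOX1, chr21:42989768-42993320, had 4.95 and 4.52 CPM in DMSO and 2.95 and 3.96 CPM in PR-957, and the log2 fold change was -0.43 with an edgeR adjusted p of 0.303. An intron 2 element of PBX4, chr19:19593545-19596942, had 5.05 and 6.44 CPM against 5.39 and 5.13 CPM, and the TGIF1 promoter interval chr18:3445069-3448819 had 4.47 and 3.30 CPM against 4.17 and 3.48 CPM. Apart from the TGIF2 promoter and the PKNOX1 element, the groups overlapped in each of these. MEIS3 had H3K4me1 only on its flank, with 4.74 and 5.06 CPM in DMSO and 3.53 and 4.87 CPM in PR-957 in the larger interval.

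PBX2 lies in the major histocompatibility region of chromosome 6 (chr6:32184733-32190202), and no interval was listed over it in any of the 4 marks. The listed H3K27ac intervals on either side of it end at 28490514 and begin at 33507739, a gap of 5.02 Mb with 183 protein-coding genes. The gap was 5.08 Mb for H3K4me3, 5.08 Mb for H3K4me1 and 2.78 Mb for H3K27me3. The level of PBX2 was therefore not analysed here.

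Genes that work with the family were taken from lists, each gene represented by its promoter interval with the highest mean count. Of 8 other TALE genes, 6 had an H3K27me3 promoter interval and 3 of these were called lower in edgeR, where 5.09% of all intervals were, namely PKNOX2 (log2 fold change -0.28, adjusted p = 3.39e-05), MKX (-0.28, adjusted p = 0.00635) and IRX5 (-0.39, adjusted p = 0.0448, not called in DESeq2). None of the 8 was called in edgeR for H3K27ac, H3K4me1 or H3K4me3, with 2, 3 and 4 genes tested. The 10 HOX partner genes (HOXA5, HOXA6, HOXA7, HOXA9, HOXA10, HOXA11, HOXB4, HOXB6, HOXB7 and HOXB9) shared only 2 H3K27me3 intervals, the wide domains of the HOXA and HOXB clusters, both called lower in edgeR. The log2 fold change was -0.43 for HOXA (standard error 0.041) and -0.34 for HOXB (standard error 0.040). For H3K27ac, 4 of these genes shared 1 interval that was called lower in edgeR (log2 fold change -0.18, adjusted p = 0.00827), and 0 were called in the H3K4 marks.

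Other proteins that bind TALE factors, among them PBXIP1, MEN1, KMT2A, CREBBP and HDAC1, gave 0 calls in edgeR in any mark over 10 genes. The 10 genes known as targets of MEIS1, PBX3 or HOXA9 gave 0 calls in edgeR as well. Only 2 of them were tested for H3K27me3, with 8 for H3K4me1 and 10 for H3K4me3. For H3K27ac, 8 of the 10 had a promoter interval, with a median log2 fold change of -0.11 beside 0.00 over all intervals and -0.17 over the 6 myeloid genes. MYB, a transcription factor of immature blood cells, had 17.7 CPM per kb in DMSO and 15.7 in PR-957 (log2 fold change -0.17, edgeR adjusted p = 0.429), SOX4 had 8.90 and 7.63 (-0.22, adjusted p = 0.582), and FLT3, a growth factor receptor, had 7.69 and 7.15 (-0.10, adjusted p = 0.750). BCL2, an inhibitor of apoptosis, had 4.17 and 4.37 (0.08, adjusted p = 0.934). For H3K4me3 the median of the 10 genes was -0.04. These values do not show that the target genes were unchanged, since a p that misses the threshold leaves a difference of this size possible.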

How the data were processed

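Counts in 16 Cut&Tag libraries, 2 per treatment for each of 4 histone marks, were analysed, and the 2 IgG samples were not analysed here. The authors deposited whole-number counts per interval without normalization, on a list of intervals shared by the 4 libraries of a mark. The submitters' processing notes name hg38, Trimmomatic 0.39, Bowtie2 2.2.5, Picard 2.27.1, SAMtools 1.7, SEACR 1.3 and deepTools 3.5.1. The counter and the handling of duplicates are not given in the sources used here, and undetected duplicates would make counts look more precise than they are. Coordinates follow the deposited files.

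Intervals passing filterByExpr (minimum count 10) were TMM-scaled and tested within each mark with edgeR 4.0.16 (quasi-likelihood test) in R 4.3.3, with Benjamini-Hochberg adjustment at 0.05 and no block. Scripts were tested on simulated data. TSS came from GENCODE release 44, overlaps of intervals with genes were computed in Python 3.11.15, and the GC content of intervals came from bedtools 2.31.1. Alternatives were DESeq2 1.42.0, other scalings, an offset removing the GC trend (loess span 0.3), other filters and windows, 1 interval per locus, the replicate number as a block and leaving out each library. For each gene and mark, the text names the promoter and the intragenic interval with the highest mean count, and the interval with the smallest p-value in each called locus. Other intervals were named after their values were seen. The genes and lists were chosen with earlier results of these data known. Replicates of a treatment correlated at 0.957 to 0.991 (log2 CPM) and differed beyond counting noise (chi-square per degree of freedom 2.06 to 2.90).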

Additional observations from a re-analysis of the deposited data

How the results depend on the processing

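Of the counts of called intervals, those for H3K4me3 were 0 under each alternative. For H3K27ac (5 called), taking 1 interval per locus gave 2, and leaving out each library gave 3 to 5, with 3 without PR-957 replicate 2. For H3K27me3 (21 called), library size only gave 11, of which 7 were lower at MEIS2 and 4 higher at MEIS3, 1 interval per locus gave 5, and the gene bodies without 10 kb on either side gave 11, since the called MEIS1 intervals lie outside the gene. Leaving out each library gave 12 to 25, with 12 without DMSO replicate 2. Cyclic loess gave 21 lower and 4 higher. For H3K4me1 (1 called), DESeq2 gave 0, 1 interval per locus gave 0, and leaving out each library gave 0 to 5, with 0 when the first library of either treatment was left out and 5 without PR-957 replicate 2. With the GC trend removed the count was also 1, but the call was an interval of PBX3 that was lower. The causes were not tested, except where the alternative itself tests fewer intervals or libraries.

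With the replicate block, 5, 19, 1 and 0 intervals were called for H3K27ac, H3K27me3, H3K4me1 and H3K4me3, and of the intervals named above only the MEIS1 locus 143 kb downstream lost its call. The deviations of same-numbered libraries correlated at -0.0089, -0.0069 and 0.0068 for the first 3 of these marks and at 0.17 for H3K4me3, and no label says that the numbers pair the libraries.

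The log2 fold changes that turned were all of intervals that were not called. With the GC trend removed the H3K4me1 intervals of MEIS1 60.6 kb and 44.6 kb from the start became -0.088 and -0.032, that of PBX3 86.3 kb from the start -0.037, and the PBX3 H3K4me3 promoter 0.0085, which cyclic loess also turned (0.0050). The PBX3 H3K4me1 promoter value of 0.87 became -0.050 with the canonical TSS only and -0.32 with a 5 kb window, both of which take another interval as the promoter, and that of TGIF1 0.0070 with library size only. Leaving out each library gave ranges that crossed 0 for H3K27ac at MEIS2 (-0.89 to 0.12), PBX4 (-0.071 to 0.41), the TGIF2 promoter (-0.048 to 0.090) and the TGIF2 intragenic interval (-0.074 to 0.24). They did so for H3K27me3 at the MEIS1 promoter interval (-0.58 to 0.016) and MEIS3 (-0.010 to 0.17), and for H3K4me1 at MEIS1 60.6 kb from the start (-0.10 to 0.10), PBX4 (-0.29 to 0.057), TGIF1 (-0.24 to 0.20) and TGIF2 (-0.060 to 0.12). For H3K4me3 the ranges were -0.090 to 0.057 at PBX3, -0.0042 to 0.061 at PKNOX1, -0.00037 to 0.082 at the TGIF2 promoter and -0.58 to 0.18 in TGIF2.

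The called PBX3 H3K27ac and MEIS1 H3K4me1 intervals rest on 22 to 81 counts per library, and both calls were lost when single libraries were left out.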
